A study of Mus musculus with 6 samples.

Results

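The liver disposes of amino nitrogen by stripping amino groups from amino acids and turning the ammonia into urea. This account covers 48 genes of that chemistry: 8 of the urea cycle, and 40 that break down or interconvert glutamine and glutamate, alanine and aspartate, ornithine and proline, serine and glycine, methionine and cysteine, tyrosine, tryptophan, histidine, the branched-chain amino acids and lysine. They were chosen by name and function, with earlier results of these data known, and matched to probe sets by gene symbol. Of the 48, 45 were among the 18029 genes measured. The glutaminase Gls2, the serine dehydratase Sds and the glycine cleavage subunit Amt were not analysed here. The comparison asks whether these transcripts differ when hepatocytes lack RECS1, a membrane protein now called Tmbim1, under a fat-rich diet.

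The control group was 3 mice labelled RECS1-flox, which carry floxed alleles of the gene. The other group was 3 mice labelled RECS1-HKO, in which RECS1 is deficient in hepatocytes only. All 6 were on the C57BL/6 background, received a high-fat diet from 8 weeks of age for 8 weeks, and were 16 weeks old when the liver was taken. The sources used here give neither the promoter that drives the recombinase nor the sex of the mice. RNA of each liver went onto 1 Affymetrix expression array, and every value below is a log2 intensity of whole liver, on which 1 unit is a 2-fold difference. In whole tissue, fewer cells of a type and less RNA per cell cannot be told apart.

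As background, hepatocytes around the portal vein make urea: Cps1 fixes ammonia in mitochondria, Otc joins the product to ornithine, Ass1 and Asl bring in the second nitrogen from aspartate, and Arg1 releases urea and returns ornithine. Hepatocytes around the central vein instead trap leftover ammonia as glutamine through Glul. Aminotransferases and specific breakdown enzymes feed both routes, and many of them respond to fasting, glucagon, glucocorticoids and dietary protein.

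The 6 array medians spanned 3.923 to 3.953. Pairs of arrays of the same genotype correlated at 0.9948 to 0.9964 over all genes, and pairs of different genotype at 0.991 to 0.994. Tmbim1 itself read 7.62, 7.58 and 7.74 on the control arrays and 7.19, 7.14 and 7.06 on the HKO arrays, a fall of 0.52 ± 0.08 (SE; limma, Benjamini-Hochberg adjusted p = 0.026). It passed in none of the 6 fits that left out 1 array (adjusted p 0.065 to 0.0967), nor with a replicate block (0.0828). That block was its only miss in 9 refits of all 6 arrays, of which it passed 8. It has 1 probe set, whose place relative to the deletion the sources do not state, which limits what it says about the labels. The 9 measured hepatocyte markers, among them Alb at 13.57 in control and 13.63 in HKO liver, had a mean level between 12.343 and 12.532 on the 6 arrays. None of them passed the test, and none of the fixed markers of macrophages, neutrophils, lymphocytes, endothelium, stellate cells, cholangiocytes, erythrocytes, adipocytes with pancreas, or kidney did. The macrophage marker Cd163 came closest, at -0.48 ± 0.09 (limma adjusted p = 0.05 when rounded). Of the 11 macrophage and Kupffer cell markers 5 lay above 0 and 6 below. All 5 measured cholangiocyte markers lay below 0, with a median of -0.222.

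No member passed the test between genotypes. In the fit over all genes, 0 of 45 members had an adjusted p under 0.05 (limma, Benjamini-Hochberg over 18029 genes), against 1.01% of all genes (0.56% higher and 0.449% lower in HKO liver). At an unadjusted p under 0.05 there were 8 members (17.8%), against 13% of all genes. The median difference, HKO minus control, was 0.048 over the members and -0.004 over all genes, and 31 of 45 members (68.9%) lay above 0, as did 48.8% of all genes. With the median of each gene's probe sets in place of the brightest, 26 members (57.8%) did. The values ran from -1.21 for Csad to 0.57 for Oat. The groups of arrays did not overlap for 10 members (22.2%; 18.7% of all genes), with HKO above control in 9 (8.58% of all genes) and below in 1 (10.1%).

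The spread between mice set how small a difference could be seen. The standard error of a member's difference had a median of 0.094 and ranged from 0.067 to 0.352. For 40 of the 45 members (88.9%; 92.2% of all genes) the unadjusted 95% interval lay within a 1.5-fold change in either direction. For 42 it lay within 2-fold. The 5 whose intervals reached past 1.5-fold were Ass1, Got1, Oat, Mat1a and Csad. All 45 members had a mean intensity above that of the median gene (4.69). The lowest was Ass1, at percentile 79.1 of all genes.

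**Figure D1:**
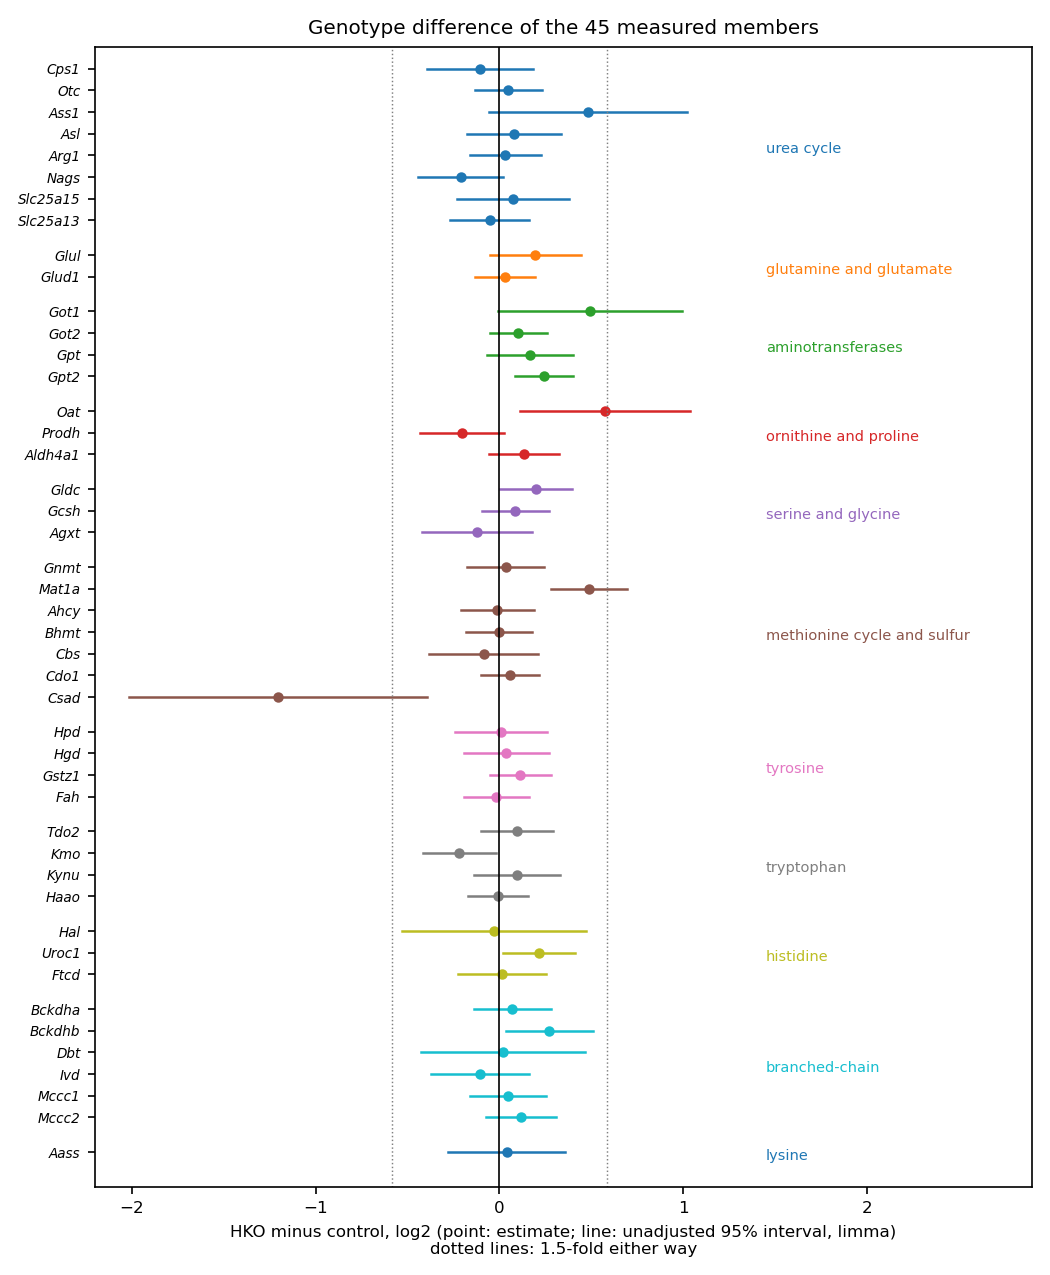
Difference between genotypes (HKO minus control, log2, horizontal axis) of each of the 45 measured members, grouped by pathway; points are limma estimates from 3 against 3 arrays and lines their unadjusted 95% intervals. Most intervals cross 0 and lie between the dotted lines at 1.5-fold, while Csad lies far to the left at -1.21 and Oat, Got1, Mat1a and Ass1 lie near 0.5 with intervals that reach past 1.5-fold.

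The 5 enzymes of the urea cycle proper stood close to their control levels, apart from Ass1. Cps1, the carbamoyl phosphate synthetase that commits ammonia to the cycle, read 12.24, 12.37 and 12.35 in control liver and 12.40, 12.33 and 11.92 in HKO liver (-0.10 ± 0.13 SE, adjusted p = 0.783). HKO 1 and 2 lay among or just above the controls, and HKO 3 below all of them. Otc, the ornithine transcarbamylase, read 11.36, 11.48 and 11.51 against 11.55, 11.54 and 11.41 (0.05 ± 0.08, 0.845). Dimmer Otc probe sets stood at 0.20 and -0.20. Arg1, the arginase that yields urea, read 12.15, 12.28 and 12.29 against 12.37, 12.27 and 12.17 (0.03 ± 0.08, 0.906). In both genes the groups overlapped. By the brightest probe sets, the 95% intervals allowed HKO levels of 0.762 to 1.14 times control for Cps1, 0.911 to 1.17 for Otc and 0.896 to 1.17 for Arg1.

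Asl, the argininosuccinate lyase, read 10.13, 10.25 and 10.07 in control liver and 10.41, 10.27 and 10.01 in HKO liver (0.08 ± 0.11, adjusted p = 0.816), with HKO 1 highest and HKO 3 lowest of all 6. Ass1, the argininosuccinate synthase, varied more between mice: 6.51, 7.18 and 6.35 in control liver and 7.40, 7.31 and 6.78 in HKO liver (0.48 ± 0.23, 0.439). Its interval ran from 0.963 to 2.03 times control, and control 2 lay inside the HKO range. For Ass1 a rise of up to 2-fold was therefore not resolved. It has 1 probe set, with the lowest mean intensity of the 45 members, so no second probe set can be set beside it. The sources do not say which transcripts it detects.

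The feeders of the cycle did not pass either. Nags makes N-acetylglutamate, the obligatory activator of Cps1, and had the lowest p of the 8 urea cycle genes. It read 7.55, 7.52 and 7.44 in control liver and 7.46, 7.33 and 7.10 in HKO liver (-0.21 ± 0.10, adjusted p = 0.435), with HKO 1 inside the control range and the other HKO arrays below it. The mitochondrial ornithine carrier Slc25a15 stood at 0.08 and the aspartate-glutamate carrier Slc25a13 at -0.05. Of the 8 genes, 5 lay above 0 and 3 below, their median was 0.041, and for none of the 8 did the groups of arrays separate.

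**Figure D2:**
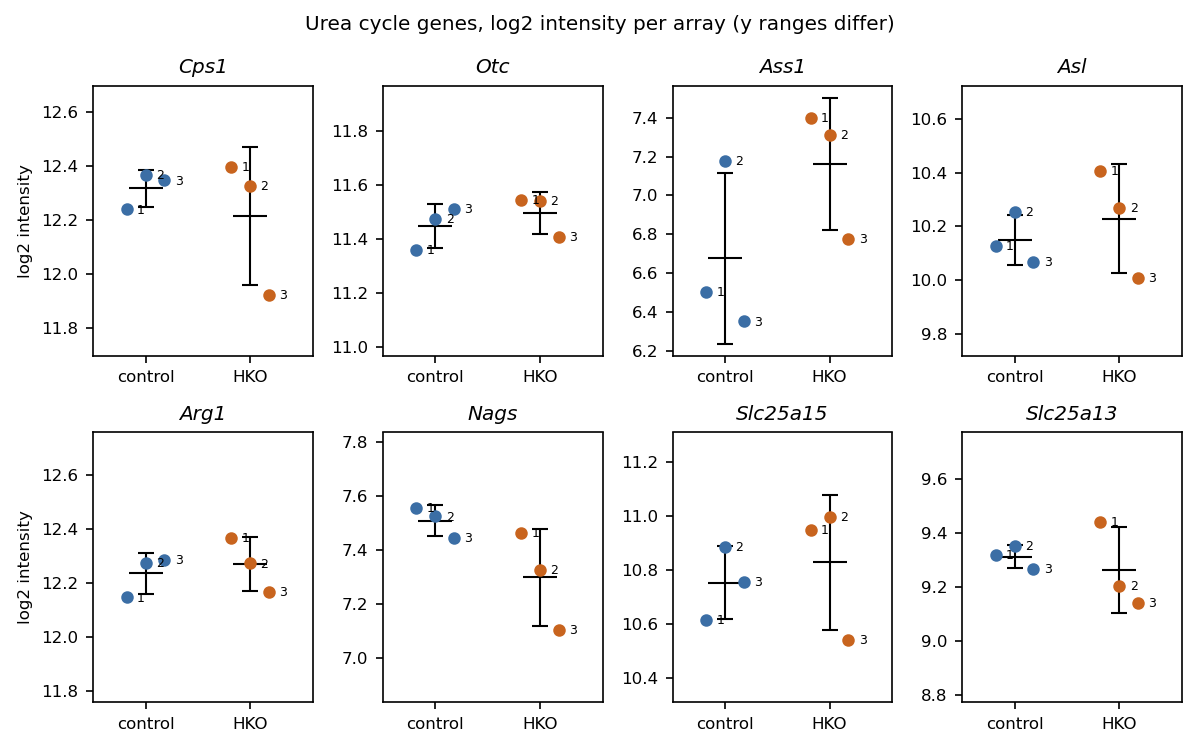
Log2 intensity (vertical axis) of the 8 urea cycle genes on the 3 control (blue) and 3 HKO (orange) arrays, numbered by replicate, with the mean and SD of each genotype as a bar. The groups overlap in every panel, and HKO 3 is the lowest HKO array in all 8.

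Ammonia that escapes the cycle is fixed by Glul, the glutamine synthetase of the hepatocytes nearest the central vein. Glul read 10.56, 10.35 and 10.16 in control liver and 10.50, 10.53 and 10.63 in HKO liver (0.20 ± 0.11, adjusted p = 0.498). The HKO arrays lay close together, HKO 1 and 2 under control 1 and HKO 3 just above it. A second Glul probe set stood at -0.03, so this small difference was not shared by both. Glud1, the glutamate dehydrogenase that releases ammonia in mitochondria, stood at 0.03 ± 0.07 (0.898), with another probe set at 0.11.

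The aminotransferases, which pass amino groups to 2-oxo acids, lay above 0 in all 4 cases but did not pass, and by the median of their probe sets Got2 and Gpt lay at -0.015 and -0.028. Gpt2, the mitochondrial alanine aminotransferase, read 9.89, 9.90 and 9.95 in control liver and 10.14, 10.20 and 10.13 in HKO liver (0.24 ± 0.07, 1.18 times control, adjusted p = 0.192). The groups did not overlap and were tight, with SDs of 0.034 and 0.039. The other 3 Gpt2 probe sets stood at 0.21, 0.20 and 0.05. Got1, the cytosolic aspartate aminotransferase, was far more variable, at 9.60, 10.12 and 10.15 against 10.85, 10.47 and 10.03 (0.49 ± 0.22, 0.394), and is described here because its value was seen to be among the largest. HKO 3 lay inside the control range. Got2, the mitochondrial form, stood at 0.10 ± 0.07 with no overlap, and the cytosolic alanine enzyme Gpt at 0.17 ± 0.10, while its dimmer probe set stood at -0.23.

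None of the 3 ornithine and proline genes passed. Oat, the ornithine aminotransferase of hepatocytes near the central vein, read 11.27, 10.88 and 10.43 in control liver and 11.39, 11.67 and 11.25 in HKO liver (0.57 ± 0.20, 1.49 times control, adjusted p = 0.281). It had the largest positive value of the 45. HKO 3 lay just under control 1, and the controls themselves had an SD of 0.418. Without 1 array the difference ranged from 0.361 to 0.779. Prodh, which opens proline breakdown, stood at -0.20 ± 0.10 (0.445), and Aldh4a1, which completes it, at 0.14 ± 0.08 (0.55) with the groups not overlapping.

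In serine and glycine breakdown 3 of 5 genes were measured. Gldc, the decarboxylase of the glycine cleavage system, read 8.78, 8.82 and 8.60 in control liver and 8.95, 8.99 and 8.85 in HKO liver (0.20 ± 0.09, adjusted p = 0.379). All HKO arrays lay above all controls, by a narrow margin. Gcsh, the carrier protein of the same system, stood at 0.09, and Agxt, which detoxifies glyoxylate in peroxisomes, at -0.12 (0.75).

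The methionine and cysteine branch held the member with the lowest p, Mat1a, and the one with the largest difference, Csad. Mat1a makes S-adenosylmethionine, the methyl donor of the cell, and is the form of the synthetase typical of adult liver. It read 11.30, 11.27 and 11.28 in control liver and 11.94, 11.71 and 11.66 in HKO liver. Every HKO array stood above every control, and the controls had an SD of only 0.012. The difference of 0.49 ± 0.09 (1.40 times control, interval 1.21 to 1.62) had the lowest p of all members and just missed the threshold (adjusted p = 0.0547).

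Whether Mat1a passed turned on the settings. It passed in 5 of 9 other refits of all 6 arrays, among them quantile normalization (adjusted p = 0.0485), leaving out dim genes (0.0356) and eBayes with trend and robust options (0.0128). In each of the 6 fits that left out 1 array it missed the threshold, and the difference ranged from 0.40 to 0.54 (0.0844 to 0.184). Mat1a is represented by 1 probe set, so no second probe set can be set beside it.

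The enzymes that use and rebuild the product of Mat1a stood near 0. Gnmt, which spends surplus S-adenosylmethionine on glycine, stood at 0.03 ± 0.09, Ahcy, which splits S-adenosylhomocysteine, at -0.01 ± 0.09, and Bhmt, which remethylates homocysteine with betaine, at 0.00 ± 0.08. Cbs, which sends homocysteine toward cysteine, stood at -0.09 ± 0.13. Their adjusted p-values lay between 0.828 and 0.997.

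Downstream of cysteine lie Cdo1, the dioxygenase that makes cysteine sulfinate, and Csad, the decarboxylase that turns it toward taurine. Cdo1 stood at 0.06 ± 0.07 (adjusted p = 0.772). Csad had the largest value of all members in either direction, and is described in full because of it. It read 7.78, 8.62 and 9.27 in control liver and 7.24, 7.002 and 7.81 in HKO liver (-1.21 ± 0.35, 0.434 times control, interval 0.247 to 0.76, adjusted p = 0.202). Control 1 lay just under HKO 3, so the groups touched, and the control SD of 0.747 was the widest of any member. Leaving out 1 array moved the value between -1.59 (without control 1) and -0.849, and it passed in no refit.

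**Figure D3:**
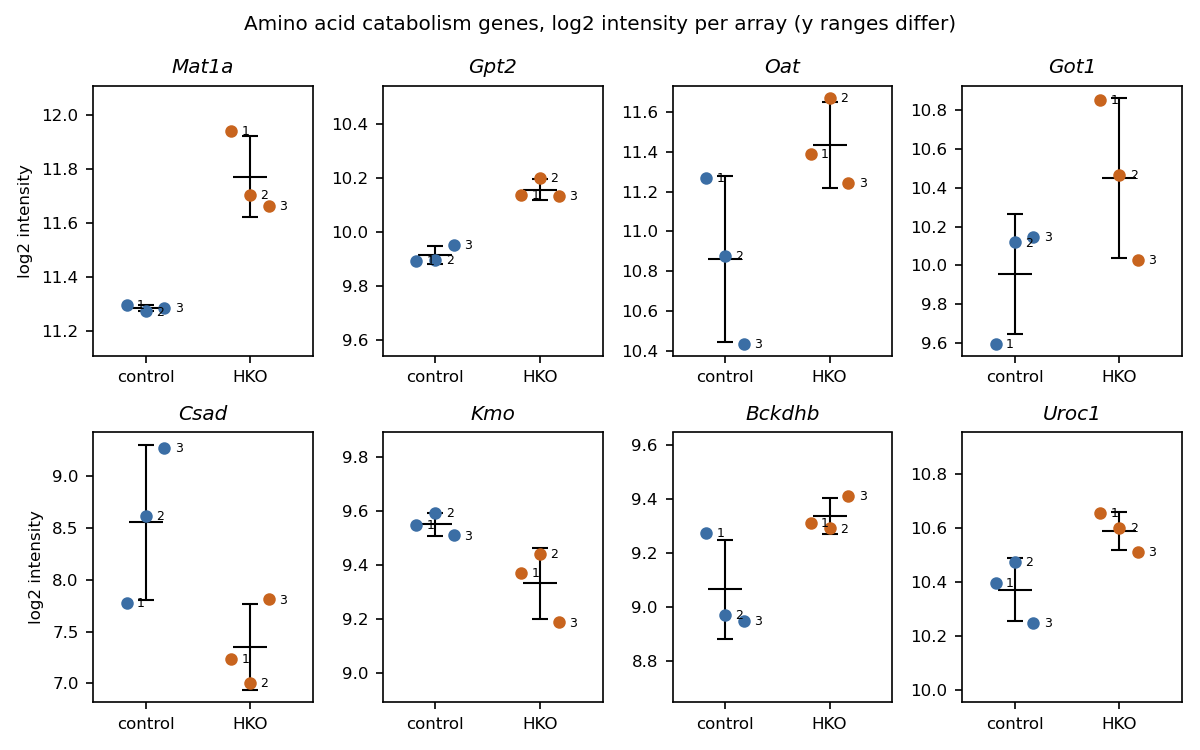
Log2 intensity (vertical axis) of 8 amino acid catabolism genes on the 3 control (blue) and 3 HKO (orange) arrays, numbered by replicate, with the mean and SD of each genotype as a bar. Mat1a, Gpt2, Kmo, Bckdhb and Uroc1 separate the genotypes by narrow to moderate margins, while Oat, Got1 and Csad have wider differences with arrays that overlap.

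The 4 tyrosine genes stood between -0.02 and 0.11. Gstz1, the maleylacetoacetate isomerase, read 10.31, 10.26 and 10.34 in control liver and 10.46, 10.45 and 10.34 in HKO liver (0.11 ± 0.07, adjusted p = 0.566), with HKO 3 only just above the highest control. The dioxygenases Hpd and Hgd stood at 0.01 and 0.04 and the terminal hydrolase Fah at -0.02. Hgd has a dimmer probe set that behaved otherwise. It read 6.27, 6.36 and 6.42 in control liver and 6.95, 6.94 and 7.08 in HKO liver (0.64 ± 0.08), and it was the only one of 67 member probe sets to pass when each of the 34325 probe sets was tested on its own (limma adjusted p = 0.0147; 0.72% of all probe sets passed). The brighter probe set, at 11.06, 11.06 and 11.12 against 11.24, 11.20 and 10.90, showed no such difference. The sources do not say which transcripts each probe set detects.

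In tryptophan breakdown Kmo, the kynurenine hydroxylase, was by the brightest probe sets the only member with every HKO array below every control. It read 9.55, 9.59 and 9.51 in control liver and 9.37, 9.44 and 9.19 in HKO liver (-0.22 ± 0.09, 0.86 times control, adjusted p = 0.34). Tdo2, the dioxygenase that opens the pathway, stood at 0.10 ± 0.08, with other probe sets at -0.16 and 0.01. Kynu stood at 0.10 by its brightest probe set and at -0.33 by a dim one, where every HKO array also lay below every control. Haao stood at -0.01.

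Histidine enzymes included Uroc1, the urocanase, which read 10.40, 10.47 and 10.25 in control liver and 10.66, 10.60 and 10.51 in HKO liver (0.22 ± 0.09, adjusted p = 0.343). Its second probe set gave 0.21, also without overlap. Hal, which makes urocanate, varied from 9.03 on HKO 3 to 9.94 on HKO 1 and stood at -0.03 ± 0.22 between genotypes. Ftcd, the last enzyme of the route, stood at 0.01.

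Of the 6 branched-chain genes 5 lay above 0. Bckdhb, the E1 beta subunit of the branched-chain dehydrogenase, read 9.28, 8.97 and 8.95 in control liver and 9.31, 9.29 and 9.41 in HKO liver (0.27 ± 0.10, 1.21 times control, adjusted p = 0.314). The groups were separate only by a hair at control 1. Of its partners in the complex, the E1 alpha subunit Bckdha stood at 0.07 ± 0.09 and the E2 core Dbt at 0.02 ± 0.19, and differences between subunits were not tested. The leucine enzymes Ivd, Mccc1 and Mccc2 stood at -0.11, 0.05 and 0.12. A dimmer Ivd probe set stood at -0.35, with every HKO array below every control. Aass, which opens lysine breakdown, read 9.84, 10.09 and 9.94 in control liver and 10.18, 10.13 and 9.68 in HKO liver (0.04 ± 0.14, 0.94), with HKO 3 again the lowest.

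The members varied between HKO mice in a shared way, seen after their values were known. HKO 1 was the highest of the 6 arrays for 26 of 45 members (57.8%; 14.8% of all genes), and HKO 3 the lowest for 22 (48.9%; 17.5% of all genes). Among the 3 HKO arrays alone, HKO 3 was the lowest for 37 members (82.2%; 31.1% of all genes). Among the 3761 genes at least as bright as the dimmest member these shares were 22%, 22% and 34.5%. For the 86 other genes of the same pathways, described below, they were 31.4%, 22.1% and 43%, lower than for the members. Members are not independent of each other, so these shares are given with no test.

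On the array scale, the median member stood 0.135 above its control mean on HKO 1, 0.108 above on HKO 2 and -0.045 from it on HKO 3. The control arrays gave 0.007, 0.044 and -0.042, and the median over all genes stayed between -0.012 and 0.011 on all 6. Without HKO 3 the members' median difference was 0.122, with 41 of 45 above 0 and 0 past the threshold (limma; lowest adjusted p 0.0844). Without HKO 1 it was 0.015, with 23 above 0. Counted by array, 40 members lay above their control mean on HKO 1, 35 on HKO 2 and 17 on HKO 3. The mean of the hepatocyte markers was also highest on HKO 1 (12.532) and lowest on HKO 3 (12.343). Of 9 markers, 7 were lowest on HKO 3 among the HKO arrays. The widest gaps between HKO 1 and HKO 3 were those of Tat (11.47 and 10.41) and Hnf4a (10.91 and 10.45), while Alb read 13.64 and 13.62. Tat is also listed among the other pathway genes and Hnf4a among the regulators, so this mean is not separate from those lists. The stellate cell and fibroblast markers had their highest mean on HKO 3 (6.975, against 6.465 to 6.674 elsewhere). In that list Col3a1 read 9.20 on HKO 3 and 7.68 to 8.22 elsewhere, while Lrat, Pdgfrb, Dcn and Acta2 were highest on a control array. The endothelial mean was also highest on HKO 3 (6.306, against 5.988 to 6.239 elsewhere), though of its genes only Lyve1 and Tek were. The part of these marker lists in the members' order was not tested.

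**Figure D4:**
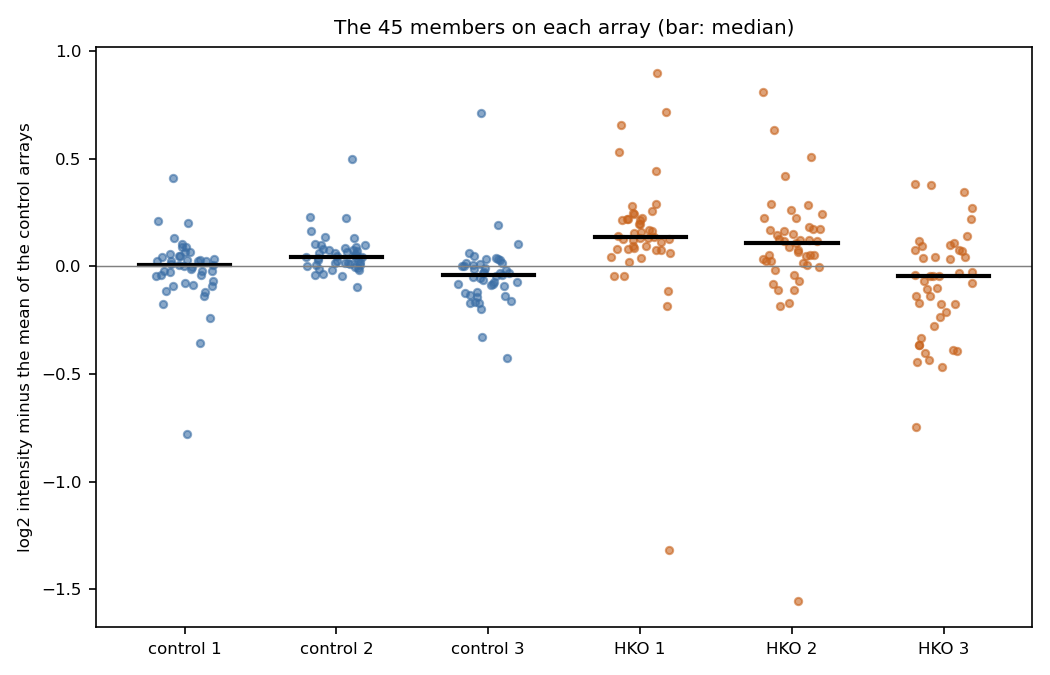
Each of the 45 members on each array, as log2 intensity minus the gene's mean over the control arrays (vertical axis); bars are medians over members. The medians of HKO 1 and HKO 2 lie at 0.135 and 0.108, that of HKO 3 at -0.045, and the lowest points on HKO 1 and HKO 2 are Csad.

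Other genes of the same pathways were taken as a list of 97, of which 86 were measured. None passed (limma, 0 of 86, lowest adjusted p = 0.0701), 24 had an unadjusted p under 0.05 (27.9%; 13% of all genes), and the median was 0.074. Of the 6 with the lowest p, Ido2 and Aadat lay below control. Ido2, a second enzyme that opens the kynurenine route, read 5.79, 5.67 and 5.55 in control liver and 5.18, 5.27 and 5.29 in HKO liver (-0.42 ± 0.08, adjusted p = 0.0701). Aadat, the kynurenine and 2-aminoadipate aminotransferase, read 9.90, 9.72 and 9.55 against 9.21, 9.34 and 9.06 (-0.52 ± 0.11, 0.0908).

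The other 4 of the 6 lay above control. Gcdh, the glutaryl-CoA dehydrogenase that follows Aass and Aadat in lysine and tryptophan breakdown, stood at 0.43 ± 0.10 (adjusted p = 0.114). Pcca, a subunit of propionyl-CoA carboxylase, stood at 0.31 ± 0.07 (0.115), Hadh, a mitochondrial hydroxyacyl-CoA dehydrogenase, at 0.26 ± 0.07 (0.179), and Ado, a thiol dioxygenase, at 0.32 ± 0.09 (0.182). In all 4, which were named for their low p, every HKO array lay above every control. Of the 86 genes, 16 had every HKO array above every control and 9 below (29.1% together; 18.7% of all genes).

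Regulators of these genes did not pass either (0 of 21, limma; 1 at an unadjusted p under 0.05, 4.76%). Of the 21, 10 lay above 0 and 11 below, with a median of -0.009. The 3 with the lowest p all lay below control: Hnf4a, the nuclear receptor that maintains hepatocyte identity, at -0.28 ± 0.12 (adjusted p = 0.37), the pioneer factor Foxa2 at -0.40 ± 0.18 (0.409) and the fasting-induced factor Creb3l3 at -0.16 ± 0.08 (0.464). Hnf4a read 10.95, 10.92 and 11.03 in control liver and 10.91, 10.71 and 10.45 in HKO liver, and was lowest on HKO 3.

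Several members mark the ends of the liver lobule, so landmarks of both ends were set beside them. None of 16 periportal landmarks passed (limma; 5 at an unadjusted p under 0.05, 31.2%, against 13% of all genes), with Cdh1, the adhesion protein E-cadherin, at -1.38 ± 0.29 (adjusted p = 0.0805), the cytochrome Cyp2f2 at -0.40 ± 0.09 (0.116) and the glucose-6-phosphatase G6pc at 0.36 ± 0.09 (0.135). None of 18 pericentral landmarks passed (limma; 6 at an unadjusted p under 0.05, 33.3%). The 3 with the lowest p were Csad and Oat, given above with opposite signs, and Cyp27a1, a sterol hydroxylase, at -0.23 ± 0.08 (0.257). The list medians were -0.011 for periportal and 0.054 for pericentral landmarks, with 7 of 16 and 10 of 18 genes above 0. Both lists contain members, so these counts are not separate from the members. They are Hal, Uroc1, Asl, Ass1, Cps1 and Arg1 at the periportal end and Glul, Oat, Prodh and Csad at the pericentral end. Among the other periportal landmarks only Hsd17b13, Hsd17b6 and G6pc lay above 0. The rest ran from -1.38 for Cdh1 to -0.002 for Igf1.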

How the data were processed

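The series holds 6 arrays, 3 per genotype. What the authors deposited are log2 intensities of 38208 probe sets. Per the submitters' processing notes, RMA and limma were used; the sources give no versions or settings. Since RMA puts the probe intensities of all arrays onto the same distribution before summarizing, a general rise or fall of RNA cannot be seen.

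The platform annotation names 1 gene for 34325 probe sets, which make up 18029 genes. For each gene the probe set brightest on average over the 6 arrays was used. The members have 67 probe sets, and 15 members have more than 1; in 8 of these all probe sets had the same sign. The genotype difference of every gene was fitted with limma 3.58.1 (R 4.3.3; lmFit, eBayes, two-sided, no other covariate). P-values were adjusted by Benjamini-Hochberg across the 18029 genes, and 0.05 was the limit. The number of arrays limits the precision; an exact permutation test of 3 against 3 cannot go below p = 0.1. Intervals are 95% and unadjusted. The steps were tested on simulated data.

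The members and lists were chosen with earlier results of these data known. Arrays were shown in full for Tmbim1, the 5 urea cycle enzymes and the member with the lowest p in each pathway; Csad, Got1, Ido2, Aadat, Hnf4a and both Hgd probe sets were added after their values were seen. From the other lists, the 6 (other pathway genes) or 3 genes with the lowest p were named. Each result was recomputed with arrays quantile-normalized or centred on their medians, without dim genes, with the median of a gene's probe sets or the one brightest in controls, with trend and robust eBayes, with array weights, with a replicate block, at a threshold of 0.1 and without each array. Adjustment over all probe sets was added after the data were seen. No source says that equal replicate numbers mark a shared litter or day, so the comparison has no block.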

Additional observations from a re-analysis of the deposited data

How the results depend on the processing

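The count of members past the threshold was 0 in each of the 6 fits without 1 array (0 to 0) and 0 with array centring, the probe set brightest in controls, the replicate block or adjustment over all probe sets. It was 1, Mat1a, with quantile normalization, without dim genes, with the median of probe sets, with trend and robust eBayes, with array weights and at a threshold of 0.1. The other pathway genes gave 1 call without dim genes (Ido2), 2 with the median of probe sets (Hadh and Slc38a2), 2 with trend and robust eBayes (Aadat and Hadh) and 2 at a threshold of 0.1 (Aadat and Ido2). Over all genes 182 passed, 344 at a threshold of 0.1 and 78 to 161 without 1 array. The members' median lay between 0.015 and 0.122 without 1 array. With the replicate block, 125 genes passed and Mat1a had an adjusted p of 0.0962; same-numbered arrays deviated with correlations of -0.094, 0.069 and 0.112, so no pairing was used.

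Of 675 refits of single members, 623 kept their sign and side, 5 (all Mat1a) gained a call and 47 changed sign, in 25 members. Outside the fits without 1 array, the sign changes were Arg1 at -0.009 and Ftcd at -0.017 with quantile normalization, Dbt at -0.007 with array weights, and, with the median of probe sets, Got2 at -0.015, Gpt at -0.028, Tdo2 at -0.162, Kynu at -0.115 and Mccc1 at -0.036. In the fits without 1 array, the values of members that changed sign ranged as follows: Arg1 -0.016 to 0.084, Bhmt -0.047 to 0.026, Fah -0.053 to 0.024, Dbt -0.115 to 0.253, Aass -0.051 to 0.196, Haao -0.043 to 0.011, Hal -0.266 to 0.189, Hpd -0.052 to 0.131, Ftcd -0.069 to 0.063, Bckdha -0.011 to 0.124, Asl -0.01 to 0.187, Gnmt -0.015 to 0.122, Hgd -0.026 to 0.145, Mccc1 -0.025 to 0.111, Slc25a15 -0.008 to 0.22, Cps1 -0.193 to 0.043, Slc25a13 -0.142 to 0.009, Agxt -0.225 to 0.033, Ahcy -0.059 to 0.069, Cbs -0.167 to 0.065 and Ivd -0.182 to 0.023. Every member that changed sign lay within 0.168 of 0 in the comparison itself and passed in none of its refits. With 3 arrays a genotype, differences near the median standard error of 0.094 could not be resolved. Larger ones, such as 0.49 for Mat1a and 0.57 for Oat, also missed the threshold in the comparison itself. All 45 members were brighter than the median gene.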
